A study of Mus musculus with 6 samples.

Results

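Of the 6 libraries in the study, the 2 made from untreated neurons are described here, chosen by their labels alone: untreated neurons, replicates 1 and 2. The neurons came from the hippocampus of C57bl/6 mouse embryos (E16.5) and had spent 10 days in culture. These cells received no KCl, whereas the other 4 libraries came from cultures kept in 55 mM KCl, a pair for 0.5 h and a pair for 3 h. The labels name no genetic change in any group. The labels call the replicates biological duplicates and do not say whether dissections, litters or dishes were duplicated, so the spread between them may be partly technical. The labels state neither the embryos' sex nor any pooling of animals. RNA was extracted with TriReagent, and libraries were made with the TruSeq RNA kit v2, which does not keep the strand. The values describe the resting state of these cultures, and no comparison with KCl was made.

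A hippocampal culture of this age is a mixed population. Pyramidal and granule neurons release glutamate, local interneurons release GABA, and astrocytes and oligodendrocyte precursors descend from progenitors that were in the dissected tissue. During the weeks after birth, neurons exchange many of the subunits of their receptors and channels for later forms, which sets how fast synaptic currents decay and whether GABA excites or inhibits. The choice within such families and the ratio of early to late members are therefore commonly read as measures of identity and maturity.

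Expression is given as cRPKM, the authors' reads per kilobase scaled to the library total, always in the order replicate 1, replicate 2. A value per kilobase allows genes to be ranked against each other. The untreated libraries held 141865913 and 133219004 counts, against 98882007 to 141865913 over all 6. Of 21553 genes with a value, 12326 (57.2%) had a mean of at least 1 cRPKM, the threshold used here for a detected gene, and 2814 had no count in either library. The median was 2.78 cRPKM over all these genes and 12.4 over the detected ones. The replicates lay close together for most genes: the median fold between them was 1.09 and the 95th percentile 1.5 over the detected genes. Only 150 of those (1.22%) were at least 2-fold apart, 35 higher in replicate 1 and 115 higher in replicate 2. With 2 libraries of 1 group there is nothing to test, and an exact permutation test of 2 values against 2 cannot go below p = 0.33. An order between 2 genes is therefore called clear only where both libraries of the higher gene lay above both libraries of the lower. At this depth a count of 0 allows up to 3 counts, which is 0.0211 and 0.0225 cRPKM for a gene of 1 kb and covers counting error only.

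The most abundant messages came from mitochondria. The 12 genes of the mitochondrial genome with a value supplied 13.8% and 11.2% of summed cRPKM and took 11 of the 20 highest places among named genes. mt-Atp6, a subunit of ATP synthase, stood at 12354 and 9199.5, and the cytochrome oxidase subunits mt-Co2 and mt-Co1 followed at 9503 and 7663 and at 8273 and 7565. mt-Co3, mt-Cytb, mt-Nd4, mt-Atp8, mt-Nd1, mt-Nd5, mt-Nd6 and mt-Nd2, which encode other parts of the respiratory chain and ATP synthase, filled the other mitochondrial places, from means of 6524 down to 2041. Each of these 11 genes was higher in replicate 1.

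The highest nuclear gene with a symbol was Tuba1a, an alpha tubulin of growing neurons, at 4585 and 3459. It was followed by the ribosomal stalk gene Rplp1 at 2342 and 2522 and by Apoe, the lipid carrier that astrocytes secrete, at 1678 and 2457. Apoe ranked 14th of all genes, above every actin. The cysteine protease inhibitor Cst3 stood at 1810.0 and 1923, the translation factor Eef1a1 at 1894 and 1733, and the cytoplasmic actins Actg1 and Actb at 1632 and 1506 and at 1481 and 1333. The ribosomal protein gene Rpl32 (1417 and 1262) and the predicted gene Gm10076 (1515 and 1533) completed the 20. The 20 held no receptor, channel or transcription factor. The 100 highest genes held 30.5% and 27.8% of summed cRPKM but only 12.2% and 11.6% of the reads, since short transcripts weigh more per kilobase.

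**Figure D1:**
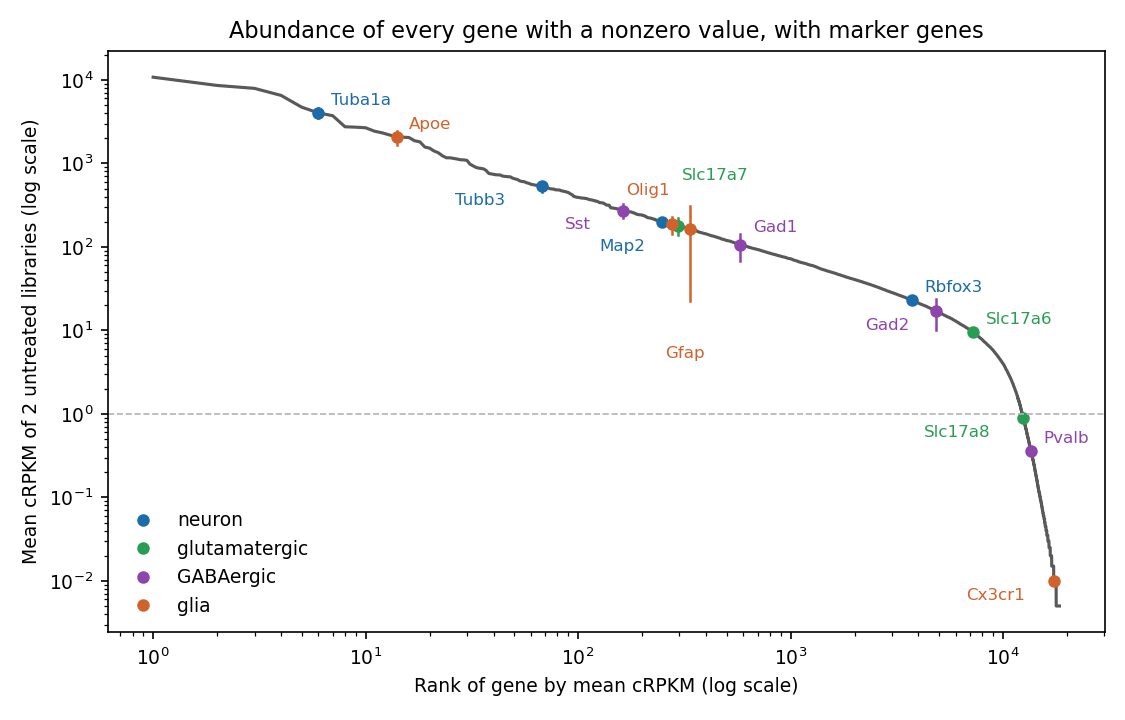
Mean cRPKM of the 2 untreated libraries (log scale) against the rank of each gene (log scale), for genes above 0; coloured points are marker genes of 4 kinds, vertical lines join the values of both libraries, and the dashed line is 1 cRPKM. Tuba1a and Apoe stand among the first 14 genes, Slc17a7 (mean 179) lies above Gad1 (mean 106), Cx3cr1 is near the floor, and the line of Gfap is the longest, from 22.4 to 307.

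Part of this ranking rests on very short counted stretches. For each of the 164 genes where the rounding of the values allowed the check, the count divided by cRPKM was a whole number of positions within 0.05 in both libraries, the same number in each. The median of this effective length was 94.7% of the longest annotated transcript over detected genes, but 248 of them (2.01%) had fewer than 200 positions. Among the 20 named above, mt-Atp6 had 83 positions, mt-Atp8 24, Rplp1 78, Rpl32 132 and Gm10076 177. Their places in the order are uncertain, and how reads shared with near-identical copies were handled is not given in the sources used here. Of the cytosolic ribosomal protein genes, many of which have processed pseudogenes, 26 of 82 had fewer than 200 positions, and their median was 154 cRPKM. Tuba1a rests on 347 positions and shares 26.2% of its exon bases with another gene on its strand in a later annotation.

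The labelled cell type was checked against its defining markers, and both libraries were clearly neuronal. Tubb3, the neuron-specific beta tubulin, stood at 607 and 453 and ranked 68th, and Map2, the dendritic microtubule protein, stood at 217 and 185 and ranked 249th. All 16 pan-neuronal markers exceeded 10 cRPKM, and 11 exceeded 100, against 32.6% and 2.93% of all genes. The microtubule regulators Stmn2 and Stmn3 stood at 779.5 and 700.3 and at 531 and 498, and the ubiquitin hydrolase Uchl1 at 577 and 519.8. Summed over the 16, the level was 4045 in replicate 1 and 3910 in replicate 2, and 8 members were higher in each. In a bulk culture a lower level can mean fewer cells of a type or less RNA per cell, and these cannot be told apart here.

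Markers of glutamate neurons were led by postsynaptic and vesicular genes. Nrgn, a calmodulin-binding postsynaptic protein, stood at 294 and 278, and Slc17a7, which loads glutamate into synaptic vesicles, at 139 and 219. Camk2a, the alpha subunit of calcium/calmodulin kinase II, stood at 115 and 189, and Neurod6, a transcription factor of pyramidal neurons, at 103 and 93.3. Slc17a7 and Camk2a were 1.57-fold and 1.65-fold higher in replicate 2, whereas Nrgn and Neurod6 were slightly higher in replicate 1. Slc17a7 supplied 93.4% and 95.3% of the vesicular glutamate transporter sum. Slc17a6, the form used by subcortical and immature neurons, stood at 8.99 and 9.91, and Slc17a8 at 0.89 and 0.88.

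Markers of GABA neurons were also present. Gad1, which makes GABA, stood at 67.9 and 143, the other synthesising enzyme Gad2 at 10.2 and 24.1, and the vesicular GABA transporter Slc32a1 at 20.9 and 39.7. All 3 were higher in replicate 2, by 2.11-fold, 2.35-fold and 1.9-fold. The interneuron adhesion ligand Nxph1 stood at 20.2 and 24.4. The sum of Gad1, Gad2 and Slc32a1 divided by that of the vesicular glutamate transporters was 0.664 in replicate 1 and 0.899 in replicate 2. This is a ratio of transcript levels, not of cells. Of the 18 GABA neuron markers with a value, 17 exceeded 1 cRPKM, against 57.2% of all genes.

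Somatostatin was the leading interneuron product. Sst stood at 220.4 and 324, which made it the most abundant of 23 neuropeptide precursors, with 61.1% and 54.4% of their sum. Cck followed at 48.4 and 144, 2.98-fold higher in replicate 2. Nts (neurotensin) stood at 41.9 and 24.1 and Grp (gastrin-releasing peptide) at 21.5 and 37.5. Calretinin, Calb2, stood at 70.1 and 98.1, and the cannabinoid receptor Cnr1, carried by cholecystokinin cells and by glutamate terminals, at 56.7 and 63.3. Of the 16 subtype markers, 13 reached 1 cRPKM and 7 reached 10, against 57.2% and 32.6% of all genes. Cort stood at 6.22 and 17.5, and Reln and Calb1 are given below. Some other subtype markers, named after their values were seen, were lower. Pvalb stood at 0.34 and 0.37, Vip at 0.02 and 1.66, Htr3a at 1.46 and 2.6 and Npy at 3.34 and 8.64. Vip rested on 5 counts in replicate 1 and 326 in replicate 2. Parvalbumin, which appears late in interneuron development, was thus below the threshold in both libraries.

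Forebrain transcription factors marked the tissue of origin. Lhx2, which specifies cortex and hippocampus, stood at 72.7 and 69.2, and the nuclear receptor Nr2f1 at 42.3 and 43.2. Lmo3, a LIM-domain cofactor, stood at 32.8 and 22.6. Of 13 hippocampal identity genes, 12 exceeded 1 cRPKM, against 57.2% of all genes. Their summed level was almost the same in both libraries, 314.3 and 313.3. By contrast, none of the 14 Hox and engrailed genes of hindbrain and spinal cord with a value reached 1 cRPKM, and 8 had no count in either library. The highest was En2 at 0.18 and 0.15.

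Markers of several hippocampal fields were detected together, but detection alone does not show that a field is present. Of all genes, 57.2% reached 1 cRPKM. So did 8 of 10 markers of striatal and thalamic neurons and 7 of 8 genes of cortical layers. Mpped1, enriched in CA1, stood at 69.8 and 59.9 and Wfs1, another CA1 marker, at 27.7 and 33.2. Of the markers of CA2 and CA3, the calmodulin regulator Pcp4 stood at 93.4 and 97.4, the phosphatase Ptpn5 at 62.7 and 67.1, the calcium-binding Cpne4 at 33.9 and 38.7 and the adhesion molecule Nectin3 at 20.6 and 20.9, and 12 of 14 exceeded 1 cRPKM. Dentate granule markers were lower. Stxbp6 stood at 17.4 and 16.2, C1ql3 at 12.3 and 14.2 (64.2% of its exon bases lie opposite another gene), the calcium buffer Calb1 at 10.3 and 14.4 and Pdzd2 at 7.99 and 8.29, and 8 of 12 exceeded 1 cRPKM. Prox1, the defining granule cell factor, stood at 5.87 and 7.7. Genes of cortical layers were led by Ntng2 at 40.6 and 49.6, Fezf2 at 29.9 and 17.9, Tle4 at 27.4 and 18.2 and Cux1 at 8.52 and 8.35, and Fezf2 and Tle4, both of deep layers, were higher in replicate 1. In Cajal-Retzius cells, which secrete reelin, Reln is accompanied by Trp73 and Lhx1. Reln stood at 34.3 and 29.5, a gene that interneurons also use, but Trp73 stood at 1.66 and 0.34 and Lhx1 at 0.67 and 0.13. Of the 10 genes on the list of these cells, 7 reached 1 cRPKM and 3 reached 10, among them Calb2 and Reln, which interneurons also use.

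Markers of neurons that use other transmitters were near or below the threshold. Of 12 markers of monoamine and acetylcholine neurons with a value, only the vesicular transporter Slc18a2 exceeded 1 cRPKM, at 1.41 and 1.24. That level was reached by 57.2% of all genes. Ddc stood at 0.49 and 0.78, Slc6a3 at 0.35 and 0.21 and Slc6a4 at 0.28 and 0.08, and Chat, the enzyme that makes acetylcholine, had 0 counts in replicate 1 and 1 in replicate 2. Slc6a5, the transporter that defines glycine-releasing neurons, stood at 0.03 and 0.05. Slc6a9, the glycine transporter of glia and glutamate neurons, stood at 25.6 and 22.8, with 30.3% of its exon bases opposite another gene.

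NMDA receptors contain the obligatory Grin1 together with Grin2 or Grin3 subunits that set their kinetics. Grin1 stood at 89.0 and 127, which was 63.8% and 69.7% of the family sum, and was clearly first. Grin2b, the slow subunit that predominates before birth, stood at 32.0 and 31.8, clearly above Grin3a (6.36 and 7.04), Grin2a (5.47 and 7.69) and Grin2d (3.82 and 6.5). The order among those 3 was not clear, since their libraries overlapped. Grin2c stood at 2.62 and 2.17 and Grin3b at 0.12 and 0.12. The Grin2b level was nearly identical in both libraries, while Grin1, Grin2a and Grin2d were each higher in replicate 2.

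AMPA receptors carry fast excitation, and Gria2 makes them impermeable to calcium. Gria2 stood at 101 and 104 and Gria1 at 81.9 and 102, and these overlapped, so no order holds between them. Gria3 (18.3 and 18.3) and Gria4 (13.1 and 15.6) were clearly lower. This order depends on the length used. On counts per kilobase of the longest annotated transcript, Gria1 was first instead, at a mean of 93.0 reads per kilobase, scaled to the library total as for all such values, against 66.9 for Gria2. Of the proteins that accompany AMPA receptors, Cnih2 was clearly first at 221 and 224, 3.84-fold above Cacng7 at 56.8 and 59.1. Cacng4 followed at 42.4 and 31.7 and Cacng8 at 27.9 and 35.5, with overlapping libraries.

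Kainate receptors were led by Grik5, a subunit that works only with partners, at 56.4 and 66.1. Of the partners, Grik3 stood at 22.7 and 16.0 and Grik2 at 15.7 and 15.9, with Grik1 at 7.98 and 10.2 and Grik4 lowest at 4.26 and 6.32. Their auxiliary subunits changed places between libraries: Neto2 stood at 31.6 and 22.2 and Neto1 at 21.97 and 26.3. In the delta family, whose members organise synapses, Grid1 stood at 15.2 and 15.9. Grm5, coupled to calcium release and used by both neurons and young astrocytes, led the metabotropic receptors at 49.1 and 44.1. Grm3 followed at 29.9 and 24.4 and the presynaptic Grm7 at 22.5 and 22.4. Grm2, Grm4 and Grm8 had means of 11.7, 4.79 and 1.3. Each step in that order was clear, and Grm6, the retinal form, had 2 counts in each library. By annotated transcript length Grm3 (31.0) passed Grm5 (20.6).

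**Figure D2:**
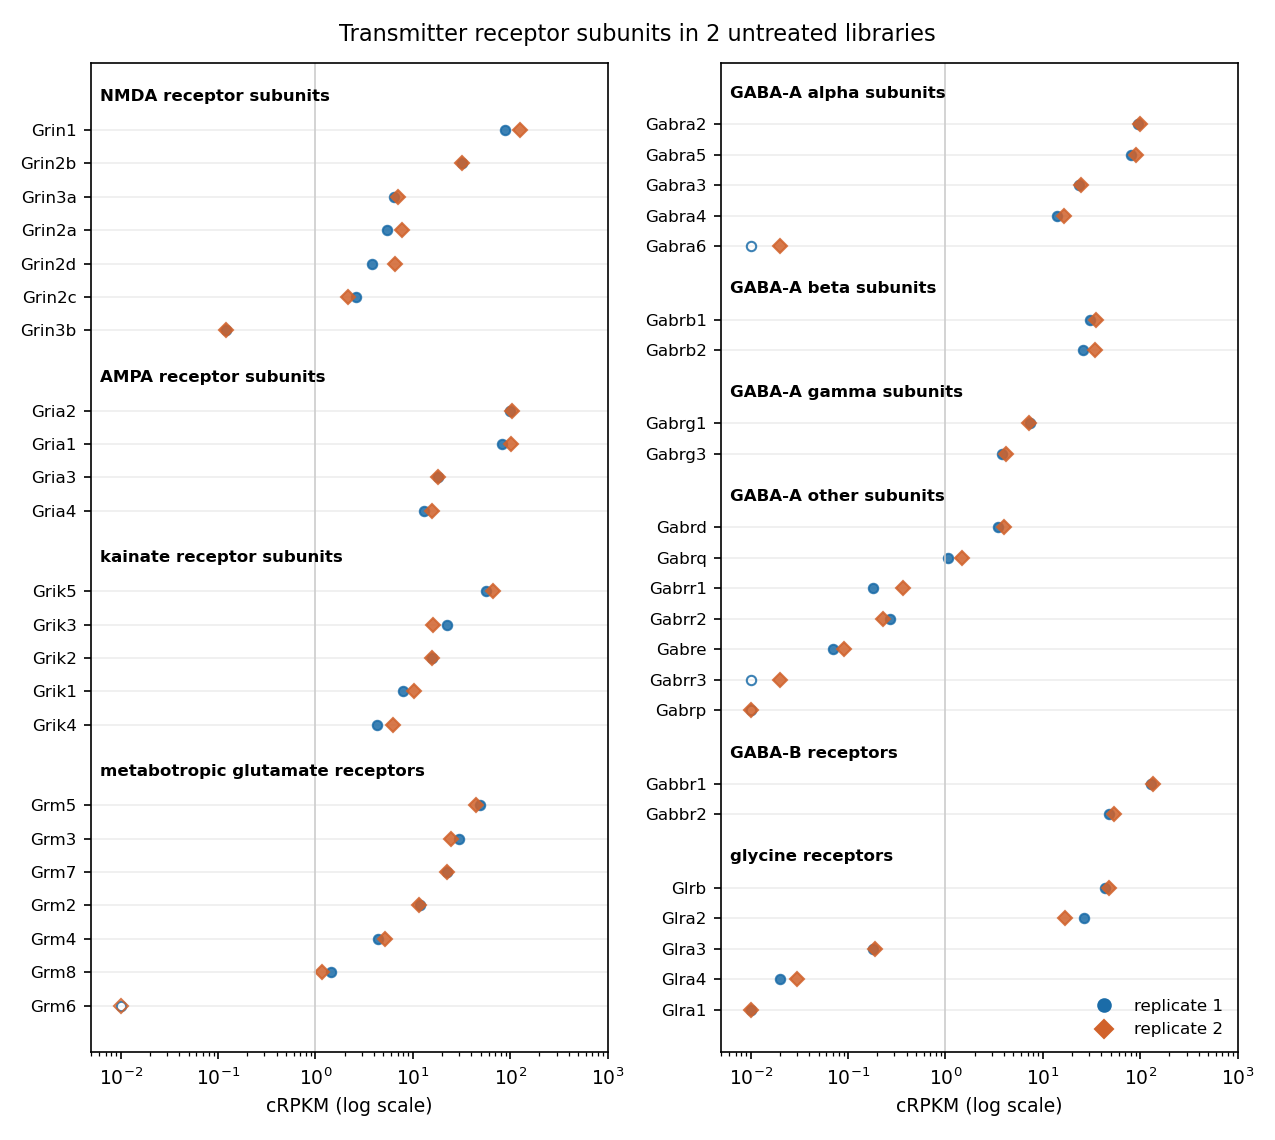
cRPKM (log scale) of glutamate, GABA and glycine receptor subunits in untreated replicate 1 (circles) and replicate 2 (diamonds), ordered within each family by the mean; open symbols mark values of 0, drawn at 0.01, and the vertical line is 1 cRPKM. Most pairs of symbols nearly coincide, and Glra2 (26.8 and 17.0) is among the widest pairs above 10.

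GABA-A receptors are pentamers in which the alpha subunit sets kinetics and location. Gabra2 stood at 94.7 and 101, clearly above Gabra5 at 81.1 and 91.0, a subunit of extrasynaptic receptors in the hippocampus. Gabra3, an early subunit, stood at 23.3 and 24.5, clearly above Gabra4, whose mean was 15.2. Gabra6, restricted to cerebellar granule cells, had 1 and 5 counts. By annotated transcript length Gabra5 (81.5) came before Gabra2 (38.4). Of the beta subunits, Gabrb1 (30.8 and 35.5) and Gabrb2 (25.7 and 34.0) overlapped. Of the gamma subunits, Gabrg1 at 7.39 and 7.14 was clearly above Gabrg3 at 3.82 and 4.15. Gabrd, the extrasynaptic delta subunit, stood at 3.49 and 4.0 and Gabrq at 1.07 and 1.49, and the other 5 less common subunits were below 1 cRPKM, the lowest being Gabrp at 0 and 0.01. Both subunits of the metabotropic GABA-B receptor were present, Gabbr1 at 129 and 137 and Gabbr2 at 48.0 and 54.3.

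Of the glycine receptor subunits, Glrb, the beta subunit, was first and stood at 43.5 and 48.4, and Glra2, the alpha subunit of the embryonic brain, at 26.8 and 17.0. Glra1, the adult spinal form, had 3 counts in each library. Whether GABA and glycine inhibit depends on chloride transporters. Slc12a5 (KCC2), which extrudes chloride, stood at 52.3 and 60.7, clearly above Slc12a2 (NKCC1), which imports it, at 9.95 and 10.1. Of the other extruders, Slc12a4 stood at 11.1 and 10.8 and Slc12a7 at 2.99 and 3.73, while Slc12a1 of the kidney stood at 0.02 and 0.01.

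Several modulatory receptor families were dominated by a single member. Adora1, the inhibitory adenosine receptor, stood at 40.4 and 45.0 and held 95.1% and 93.1% of its family, whose other members above the threshold were Adora2a at 0.97 and 1.84 and Adora2b at 1.11 and 1.49. Cnr1 held 99.9% of the cannabinoid pair, with Cnr2 at 0.04 and 0.04. Among opioid receptors the nociceptin receptor Oprl1 stood at 14.02 and 12.7, well above the delta receptor Oprd1 at 1.17 and 1.97, and the kappa receptor Oprk1 was lowest at 0.03 and 0.04. Htr2c led 14 serotonin receptors at 18.1 and 21.9, 4.65-fold above Htr7 at 4.16 and 4.45, followed by Htr6 at 3.94 and 4.37 and Htr1a at 3.15 and 5.07. Dopamine receptors were sparse: Drd1 stood at 1.84 and 1.61, Drd2 at 1.05 and 1.13 and Drd3, the lowest, at 0.02 and 0.01.

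Acetylcholine receptors were more evenly spread. Of the nicotinic subunits, Chrnb2 stood at 14.9 and 15.4, Chrna4, its usual partner, at 11.96 and 10.1, the homomer-forming Chrna7 at 8.33 and 11.8 and Chrna5 at 1.85 and 0.93. The other 9 were below 1 cRPKM. Muscarinic receptors had no stable leader, with Chrm1 at 7.95 and 17.1, Chrm3 at 9.46 and 11.9 and Chrm4 at 6.81 and 8.95. Chrm3 was first in replicate 1 and Chrm1 in replicate 2, and by annotated transcript length Chrm4 was first (14.9). Chrm5 stood at 1.11 and 0.98 and Chrm2 at 0.39 and 0.64. Adrenergic receptors were led by the presynaptic Adra2a at 9.97 and 9.75 and by Adra2c at 5.34 and 6.13. Adrb1, Adra1d, Adra1a and Adra1b had means between 1.82 and 3.63, and Adra2b was lowest at 0.03 and 0.03.

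Receptors for the abundant peptide somatostatin were also present: Sstr2 stood at 14.3 and 16.7, Sstr1 at 13.6 and 12.3, Sstr4 at 9.63 and 8.83 and Sstr3 at 1.5 and 3.08, with Sstr5 lowest at 0.02 and 0.03. By annotated transcript length Sstr1 (24.5) came before Sstr2 (10.8). Ntrk2, the receptor of BDNF on neurons and astrocytes, stood at 68.1 and 78.5, clearly above Ntrk3 at 27.3 and 27.7 and Ngfr at 1.54 and 1.39. Of the ligands, Bdnf stood at 7.0 and 11.7, Ntf3 at 9.67 and 8.31 and Ntf5 at 0.09 and 0.09, and Bdnf and Ntf3 exchanged the first place between the libraries. ATP-gated channels were low, from P2rx4 at 3.2 and 3.7, P2rx6 at 2.95 and 2.96 and P2rx3 at 2.07 and 3.36 to P2rx1 at 0.01 and 0.02, and P2rx3 was first by annotated length (2.64). P2rx7 stood at 0.73 and 1.32.

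Voltage-gated sodium channels start the action potential. Scn2a, the channel of developing axons, stood at 43.1 and 47.3, 51.8% and 52.8% of the alpha subunit sum. Scn8a, which replaces it at mature axon initial segments, stood at 21.0 and 22.3, Scn3a, an embryonic form, at 13.6 and 12.5, and Scn1a, the channel of mature interneurons, at 5.22 and 6.92. All steps in this order were clear. The other 5 alpha subunits, of muscle, heart and sensory neurons, were below 1 cRPKM, and Scn4a, the muscle form, was lowest at 0 and 0. The beta subunit Scn3b at 63.8 and 55.7 was clearly above Scn2b at 13.8 and 23.2, while Scn4b stood at 0.04 and 0.06.

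Calcium channels were spread over more members than sodium channels. Cacna1b, the N-type channel of nerve terminals, stood at 31.6 and 29.6, followed by Cacna1e (R-type) at 27.3 and 26.1 and Cacna1a (P/Q-type) at 21.1 and 24.6. These 3 were in a clear order within a narrow range, and by annotated transcript length Cacna1a (22.7) came before Cacna1b (21.8). The T-type Cacna1h stood at 16.8 and 16.1, the L-type Cacna1c at 14.8 and 14.6, and Cacna1g, Cacna1d and Cacna1i at 8.14 and 9.44, at 8.49 and 7.78 and at 5.38 and 8.11. The muscle and retinal forms were at the floor, the lowest being Cacna1f at 0.03 and 0.03. Cacnb3 led the beta subunits at 38.7 and 36.0, with Cacnb1 at 30.3 and 34.5, Cacnb4 at 11.7 and 14.5 and Cacnb2 at 7.23 and 9.63. Cacna2d3 led the alpha2delta subunits, which traffic the channels, at 37.1 and 41.5, with Cacna2d1 at 20.9 and 25.5, Cacna2d2 at 7.47 and 7.83 and Cacna2d4 at 0.25 and 0.35.

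Potassium channels repolarise neurons and hold the resting potential. In the Kv1 family Kcna6 stood at 29.1 and 27.1, above the axonal Kcna2 at 11.7 and 12.7 and Kcna1 at 11.1 and 13.0, which overlapped, and above Kcna3 at 7.57 and 9.06 and Kcna4 at 5.91 and 6.99. The place of Kcna6 is uncertain, because 39.6% of its exon bases lie opposite another gene, and by annotated length Kcna1 (26.7) came before Kcna6 (15.5). Kcna10 was lowest at 0.02 and 0.02. The Kv2 subunit Kcnb2, a delayed rectifier, stood at 3.89 and 4.4. Among the Kv3 channels of fast spiking, Kcnc4 stood at 18.7 and 21.9, clearly above Kcnc1 at 9.52 and 8.75 and Kcnc2 at 5.69 and 9.48, which overlapped. Of the A-type Kv4 channels Kcnd3 stood at 23.2 and 20.3, Kcnd2 at 11.97 and 13.2 and Kcnd1 at 4.55 and 4.5, but by annotated length Kcnd2 (12.5) passed Kcnd3 (7.94). Their partners were led by Dpp6 at 48.9 and 55.8 and Kcnip3 at 38.4 and 40.7. Kcnip2, Kcnip1 and Dpp10 had means between 14.4 and 21.6, Kcnip4 was lowest at 3.71 and 7.27, and all 6 were higher in replicate 2.

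The M-current, which restrains repetitive firing, is carried by Kv7 channels. Kcnq3 at 15.3 and 20.8 overlapped Kcnq5 at 16.1 and 18.2, and the cardiac Kcnq1 stood at 0.10 and 0.12. Kcnh3 led the Eag, Erg and Elk channels at 17.0 and 20.8, with Kcnh2 at 4.89 and 6.17, Kcnh7 at 3.88 and 4.04, Kcnh1 at 2.54 and 3.64 and Kcnh4 at 1.15 and 1.05, and Kcnh8 lowest at 0.29 and 0.33. The electrically silent subunits that modify Kv2 channels were led by Kcng1 at 17.2 and 16.4, Kcnf1 at 8.86 and 11.3, Kcng2 at 5.25 and 6.72 and Kcnv1 at 4.83 and 5.29, and Kcnv2 was lowest at 0.07 and 0.07.

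Channels opened by calcium, sodium or hyperpolarisation were each shared by several members. Kcnma1, the large-conductance channel, stood at 22.8 and 24.9 and overlapped the small-conductance Kcnn2 at 19.4 and 23.3, which was first by annotated length (21.0 against 6.62). Kcnt2 stood at 7.97 and 8.64, Kcnn3 at 7.04 and 7.07, Kcnn1 at 5.81 and 8.16, Kcnt1 at 5.77 and 6.0 and Kcnn4, of blood cells and epithelia, at 0.05 and 0.05. Of the HCN pacemaker channels, Hcn2 stood at 25.3 and 29.3, Hcn3 at 20.2 and 21.0 and Hcn4 at 9.36 and 7.54, in a clear order. Among inward rectifiers Kcnj4 stood at 23.4 and 27.5, the astrocyte channel Kcnj10 at 18.4 and 15.5, and the G-protein-gated Kcnj3 and Kcnj9 at 12.3 and 14.8 and at 5.86 and 9.86, with 31.1% of the exon bases of Kcnj3 opposite another gene. Leak channels were led by Kcnk2 at 27.8 and 27.3, Kcnk1 at 17.6 and 21.2, Kcnk10 at 12.4 and 10.3 and Kcnk9 at 10.1 and 11.0, and by annotated length Kcnk1 (19.5) came before Kcnk2 (9.51). Trpc1 at 11.1 and 12.1 overlapped Trpc4 at 7.14 and 11.1 among the receptor-activated TRPC channels, followed by Trpc5 at 4.44 and 6.44. Trpc4 was first of these by annotated length (8.86), and Trpc7 was lowest at 0.45 and 0.55.

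**Figure D3:**
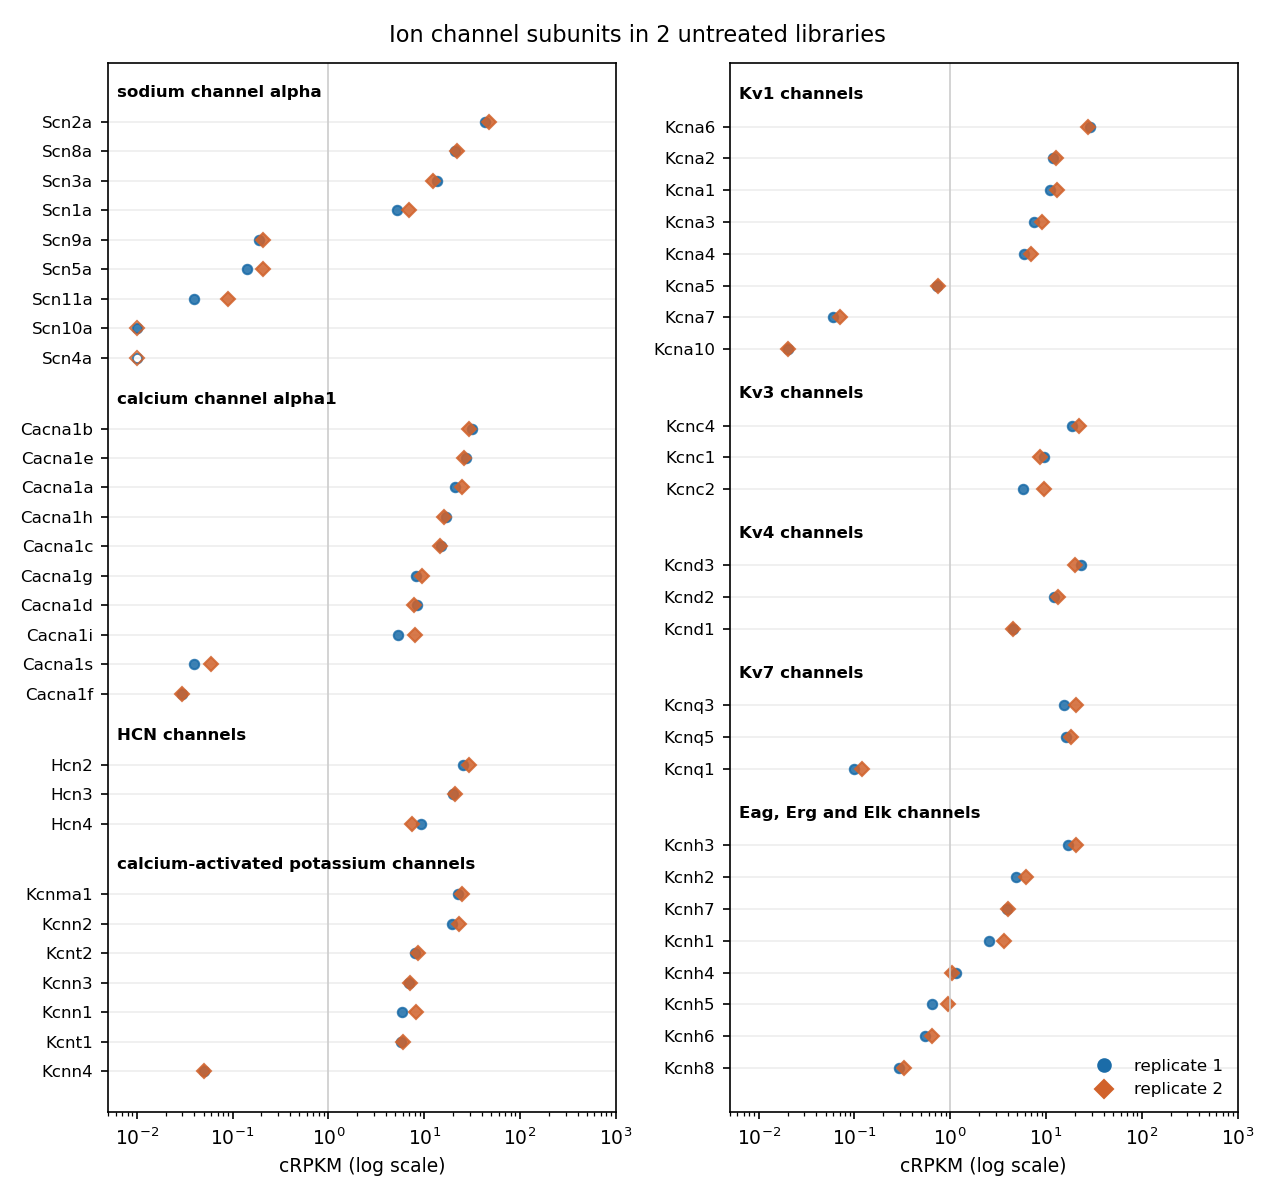
cRPKM (log scale) of ion channel subunits in untreated replicate 1 (circles) and replicate 2 (diamonds), ordered within each family by the mean; open symbols mark values of 0, drawn at 0.01, and the vertical line is 1 cRPKM. Central nervous system forms such as Scn2a and Kcnq3 (means 45.2 and 18.1) stand far to the right of muscle, heart and retinal forms of the same families, such as Scn4a, Kcnq1 and Cacna1f.

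Pumps and transporters keep the ion gradients and clear transmitter. The beta subunits of the sodium pump stood in a clear order, Atp1b1 at 436 and 571, Atp1b2 at 156 and 214 and Atp1b3 at 37.3 and 37.6. Calcium pumps of the plasma membrane were led by Atp2b1 at 90.0 and 81.3, with Atp2b4 at 40.2 and 43.0, Atp2b2 at 35.05 and 41.8 and Atp2b3 at 22.9 and 28.3. Among glutamate transporters the astrocyte forms were highest: Slc1a3 stood at 389.9 and 398 and Slc1a2 at 187 and 268, against 33.4 and 35.6 for the neuronal Slc1a1, whose exons lie to 31.9% opposite another gene, 6.83 and 8.15 for Slc1a6 and 0.10 and 0.15 for Slc1a7. The astrocyte GABA transporter Slc6a11 stood at 138 and 121, while Slc6a12 was lowest of its family at 0.11 and 0.08. Glucose entry was led by the neuronal Slc2a3 at 42.5 and 56.8, 5.31-fold above Slc2a1 at 7.7 and 11.0, followed by Slc2a4 at 1.08 and 0.71, with Slc2a5 lowest at 0.03 and 0.06.

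The release machinery was strongly represented. Vamp2, the vesicle SNARE, stood at 345 and 422 and held 87.8% and 89.0% of its family, with Vamp3 at 23.9 and 21.9, Vamp4 at 19.6 and 21.7 and Vamp1 at 4.45 and 8.86. Its partner Snap25 stood at 260.3 and 293, with Snap29 at 16.9 and 14.7 and Snap23 at 5.13 and 4.87. The syntaxin Stx1a stood at 98.9 and 91.3. Of 17 synaptotagmins, Syt11, which does not bind calcium, stood at 234 and 252, clearly above the calcium sensor Syt1 at 155 and 219.6, and Syt4 and Syt5 followed at 117 and 104 and at 83.5 and 90.5. Cplx2 at 165 and 174 and Cplx1 at 147 and 184, which clamp release, overlapped, and Cplx4 of the retina stood at 0.03 and 0.02. Unc13a, which primes vesicles, stood at 50.8 and 53.1, clearly above Unc13b at 8.2 and 7.85, with Unc13d lowest at 0.10 and 0.09. Active zone Rims1 at 21.6 and 23.6 overlapped Rims4 at 20.8 and 22.02, above Rims3 at 14.4 and 13.3 and Rims2 at 7.82 and 7.99. The vesicle phosphoproteins Syn1, Syn2 and Syn3 stood at 105 and 112, at 60.03 and 88.3 and at 16.0 and 12.4.

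On the postsynaptic side, Dlg4 (PSD-95) led its scaffold family at 147 and 177, over Dlg2 at 63.3 and 68.5, Dlg3 at 28.2 and 36.4 and Dlg1 at 13.8 and 15.9. Shank1, Shank3 and Shank2 stood at 39.7 and 40.1, at 27.3 and 31.4 and at 17.7 and 22.01, and Homer1, Homer3 and Homer2 at 12.8 and 12.3, at 12.7 and 11.0 and at 9.97 and 9.88. Homer1 and Homer3 overlapped, 25.4% of the exon bases of Homer3 lie opposite another gene, and by annotated length Homer2 was first (9.8). Camk2b stood at 169.7 and 179.8 and overlapped Camk2a, above Camk2g at 41.5 and 43.2 and Camk2d at 29.6 and 36.9. Of the adhesion pairs that span the cleft, Nlgn2, the neuroligin of inhibitory synapses, stood at 76.6 and 81.4, Nlgn3 at 26.0 and 27.2 and Nlgn1 at 20.6 and 21.7, with 41.2% of the exon bases of Nlgn3 shared with another gene. The neurexins Nrxn2 and Nrxn3 stood at 126 and 129.9 and at 14.8 and 19.8.

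Tubulins had the highest sums of the 83 families, 5037 and 3922 for alpha and 3828 and 3317 for beta tubulins. After Tuba1a, Tuba1b stood at 347 and 326, Tuba4a at 103 and 134 (37.3% of exon bases opposite another gene) and Tuba8 at 1.03 and 2.27, with Tuba3b lowest at 0 and 0.01. Tubb2b at 1305 and 1029 and Tubb2a at 1105 and 1105 overlapped at the head of the beta tubulins, before Tubb3, Tubb5 at 526 and 410.4, Tubb4a at 157 and 168, Tubb4b at 125 and 146 and Tubb6 at 4.39 and 4.56, and Tubb1, of platelets, stood at 0.02 and 0.02. Stmn1, the stathmin that dividing and growing cells use, stood at 886 and 608, and Stmn4 at 249 and 238. Map1b, the microtubule protein of growing axons, stood at 313 and 219 and overlapped Mapt (tau) at 291 and 234, above Map2, Dclk1 at 112 and 105, Map4 at 72.0 and 71.8, Dcx at 83.2 and 45.1, Map1a at 56.4 and 62.0 and Map6 at 56.4 and 50.6. Of the collapsin response mediators, Dpysl3 stood at 523 and 330.2, Crmp1 at 441 and 324, Dpysl5 at 266 and 182, Dpysl2 at 90.9 and 69.5 and Dpysl4 at 29.0 and 27.4. All 4 stathmins and all 5 mediators were higher in replicate 1, as were 46.0% of all detected named genes. By annotated length Crmp1 (376) came before Dpysl3 (160.1).

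Intermediate filament genes changed order between the libraries. Ina, an early neurofilament subunit, stood at 105 and 84.7, Vim, of progenitors and astrocytes, at 102 and 84.9, Nefl at 68.0 and 115 with 32.8% of its exon bases opposite another gene, and Nefm at 30.5 and 37.9. Nes, of progenitors, stood at 9.97 and 4.65, Prph at 8.21 and 5.56 and Nefh, the late heavy subunit, at 3.26 and 4.88, while the muscle filament Des stood at 0.01 and 0.01. Gfap, the astrocyte filament, moved from the fifth place in replicate 1 to the first in replicate 2, and is described with the astrocytes.

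Isoforms of glycolysis and signalling were also ordered. Aldoa stood at 672 and 1042 and the astrocyte aldolase Aldoc at 216 and 322. Eno1 stood at 226 and 345, the neuronal enolase Eno2 at 86.5 and 122 and the muscle form Eno3 at 2.98 and 3.29, but by annotated length Eno2 (102) came before Eno1 (56.6). Ldha at 201 and 315 overlapped Ldhb at 186 and 214, and Ldhc, of testis, had no count. Each of these enolases, aldolases and the first 2 lactate dehydrogenases was higher in replicate 2 in the untreated pair. Calm2 and Calm3, which encode the same calmodulin protein, stood at 841 and 797 and at 680.2 and 734. The 14-3-3 adaptor genes kept a clear order at every step, from Ywhae at 564 and 529 through Ywhag, Ywhaz, Ywhah and Ywhaq to Ywhab at 213 and 211, and the epithelial Sfn stood at 1.78 and 1.44.

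The study's title concerns splicing, so the levels of neural splicing factors at rest are given. Rbfox2 stood at 68.3 and 64.4, clearly above Rbfox3, the neuronal nuclear antigen NeuN, at 20.5 and 25.4 and Rbfox1 at 20.5 and 23.5, which overlapped. Ptbp2, the neuronal polypyrimidine tract protein, stood at 43.9 and 38.5, clearly above Ptbp1, the form of progenitors and glia, at 16.8 and 14.04 and Ptbp3 at 4.41 and 4.63. Srrm4 and Srrm3, activators of neural microexons, stood at 13.0 and 12.3 and at 10.6 and 11.9. Elavl3 led the neuronal Elavl proteins at 90.1 and 84.2, before Elavl4 at 24.7 and 20.5, Elavl2 at 20.2 and 21.3 and the ubiquitous Elavl1 at 13.6 and 12.8. In all 4 families every member exceeded 1 cRPKM, against 57.2% of all genes, and the first member was the same in both libraries.

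Granins and activity genes describe secretion and the resting transcription of stimulus-dependent genes. Vgf, the neurosecretory gene that activity and BDNF induce, stood at 73.8 and 150.2, Scg3 at 107 and 116, Pcsk1n at 85.1 and 104, Chgb at 72.2 and 102, Scg5 at 73.7 and 95.4, Chga at 66.0 and 85.3 and Scg2 at 44.5 and 80.5, all higher in replicate 2. Scg3 was first in replicate 1 and Vgf in replicate 2. Of 19 immediate early genes, 16 exceeded 1 cRPKM and 9 reached 10 without KCl, against 57.2% and 32.6% of all genes. Their median was 8.06 cRPKM, against 2.78 over all genes. The highest were Nr4a3 at 44.3 and 41.2, Jund at 43.6 and 40.4 (52.6% of exon bases opposite another gene), Fosl2 at 46.1 and 31.1 and Jun at 29.8 and 27.8, and of the 16 detected members 9 were higher in replicate 1 and 7 in replicate 2. Genes of cholesterol synthesis, a pathway active in growing neurons and in astrocytes, were all detected: the 17 with a value exceeded 10 cRPKM, against 32.6% of all genes, and their median was 65.4. Fdps stood at 249.5 and 188 (26.7% of exon bases shared with another gene), Sqle at 162 and 139 and Fdft1 at 150.4 and 135.

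Maturity was gauged by 18 pairs that join a gene taken as earlier in neuronal maturation with a gene taken as later. Of the pairs, 15 are given here. Whether each gene falls or rises with age was not tested, since all libraries are of 1 age. Of these, the later gene was higher in both libraries in 3, the earlier gene in both in 9, and the libraries disagreed in 3. The later gene led for Slc17a7 over Slc17a6 (log2 ratio 4.21 ± 0.36, SD, n = 2), Slc12a5 over Slc12a2 (2.49 ± 0.13) and Dlg4 over Dlg3 (2.33 ± 0.074). In these 3 pairs the transcript taken as later was thus the higher one. The earlier gene led for the NMDA subunits Grin2a over Grin2b (-2.30 ± 0.35) and for the sodium channels Scn8a over Scn2a (-1.06 ± 0.034) and Scn1a over Scn3a (-1.12 ± 0.37). The earlier gene also led in the cytoskeletal pairs, with Map1a over Map1b at -2.15 ± 0.46, Tubb4a over Tubb2b at -2.84 ± 0.32 and Nefh over Ina at -4.56 ± 0.63. Rbfox3 stood below Dcx at -1.42 ± 0.85 and Kcnc1 below Kcnd2 at -0.46 ± 0.19. Kcnc1 and Kcnd2 belong to different channel families, so their ratio may also follow the mix of cells. In a bulk culture this holds for the other pairs too, and it was not tested for any pair. Glra1 over Glra2 had the lowest ratio, whose size depends on the pseudocount because Glra1 had 3 counts in each library.

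The pairs that disagreed were Grin2a over Grin3a (-0.22 in replicate 1 and 0.13 in replicate 2), Camk2a over Camk2b (-0.56 and 0.074) and Cplx1 over Cplx2 (-0.17 and 0.081). In each the later gene led only in replicate 2. By annotated transcript length Grin2a over Grin3a had a mean of -1.64, with Grin3a higher in both libraries, and Dlg4 over Dlg3 became 1.36, Tubb4a over Tubb2b -1.70 and Kcnc1 over Kcnd2 -1.98. On the deposited values, over the 15 pairs the ratio was higher in replicate 2 in 12. These pairs are not independent, since Grin2a enters 2 of them. At transcript level, the earlier gene thus led for Grin2b and Grin2a, the sodium channels and the cytoskeleton, while the later gene led for the transporters.

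**Figure D4:**
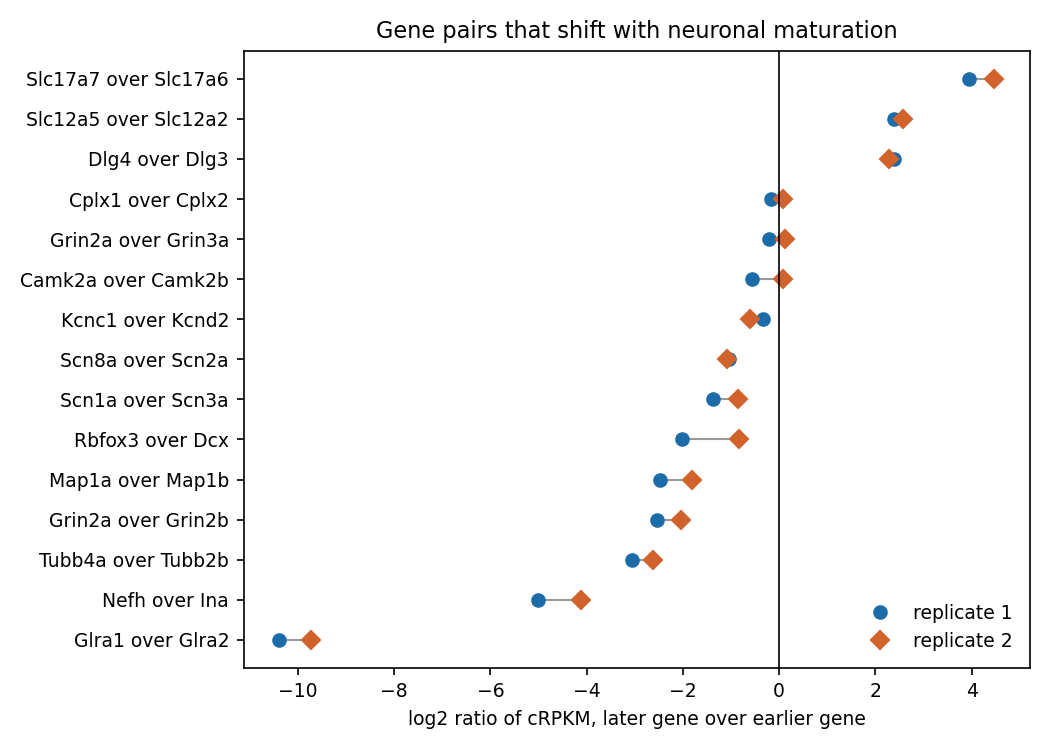
Log2 ratio of cRPKM of the later over the earlier gene of 15 pairs, in untreated replicate 1 (circles) and replicate 2 (diamonds); a line joins the 2 values of a pair, and values right of 0 mean that the later gene is higher. Only 3 pairs lie right of 0 in both libraries, and the diamond lies right of the circle in 12 of 15.

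Genes of immature and of mature neurons were both detected. Of 21 genes of immature neurons, 19 exceeded 1 cRPKM and 11 exceeded 100, against 57.2% and 2.93% of all genes. Their median was 131, against 35.9 over 20 genes of mature neurons and 12.4 over all detected genes. Tuba1a and Tubb2b were followed by Nnat, an imprinted gene of developing brain, at 931 and 826 and by Stmn1. The growth cone protein Gap43 (chosen once values were known) stood at 709 and 568. All 20 mature genes exceeded 1 cRPKM, against 57.2% of all genes. Camkv, a kinase-like protein of synapses, stood at 176 and 179. Both programmes were thus expressed in the same cultures, and bulk RNA does not show whether in the same cells.

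Of the non-neuronal lists, which differ in size, that of astrocytes had the highest summed level. All 20 astrocyte markers exceeded 1 cRPKM and 19 exceeded 10, against 57.2% and 32.6% of all genes. Their summed level was 5221 in replicate 1 and 6268 in replicate 2, much of it from Apoe and Fabp7. After Apoe, Fabp7, the lipid-binding protein of radial glia and young astrocytes, stood at 1231 and 641, and the secreted synapse-organising protein Sparcl1 at 487 and 638. The water channel Aqp4 stood at 33.7 and 40.3, the folate enzyme Aldh1l1 at 32.9 and 37.5 and the gap junction protein Gja1 at 129 and 135, and these 3, named after their values were seen, were similar in both libraries. Gfap was not: it stood at 22.4 and 307, a 13.7-fold higher level in replicate 2, resting on 8252 and 106415 counts. Fabp7 moved the other way, with a 1.92-fold higher level in replicate 1. In direction Gfap was not alone: of the 20 markers 17 were higher in replicate 2 and 3 in replicate 1. The size of its difference was not typical of them. The median log2 ratio of replicate 1 over replicate 2 was -0.22 over the 20, against -3.78 for Gfap. Of all detected named genes, 46.0% were higher in replicate 1. Clu stood at 87.1 and 189 and Ntsr2 at 8.28 and 22.7. Astrocyte transcripts were therefore abundant in both libraries, but their levels relative to each other differed.

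Olig1 and Olig2, of the oligodendrocyte lineage, were clearly detected, and the myelin genes named here were lower than both. Olig1, a transcription factor of the lineage, stood at 231 and 144 and ranked 276th of all genes, and Olig2 stood at 41.7 and 27.8. The myelin enzyme Cnp stood at 10.6 and 12.8 and the precursor receptor Pdgfra at 8.75 and 12.7. Of 16 markers of the lineage, 12 exceeded 1 cRPKM and 4 exceeded 10, against 57.2% and 32.6% of all genes. Their median was 1.9 cRPKM, against 2.78 over all genes, so the list as a whole was not high. Mbp, of myelin (chosen once values were known), stood at 3.19 and 4.65. Olig1 and Olig2 were higher in replicate 1, and 10 of the 12 detected markers were higher in replicate 2, among them Gpr17, of differentiating precursors, at 0.24 and 3.64.

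Progenitor and cell cycle genes were present at low to moderate levels. Of 10 progenitor genes with a value, 9 exceeded 1 cRPKM, against 57.2% of all genes. They were led by Vim, Hopx at 43.8 and 40.4 (27.2% of exon bases opposite another gene), the stem cell factor Sox2 at 42.2 and 42.0 and the matrix protein Tnc at 24.1 and 10.7. All 12 genes of dividing cells exceeded 1 cRPKM but only 1 reached 10, against 57.2% and 32.6% of all genes. Their median was 5.4 cRPKM, against 2.78 over all genes and 12.4 over the detected ones. Pcna, the replication clamp, stood at 46.4 and 37.3, Top2a at 11.9 and 7.63, Mcm2 at 7.46 and 5.98 and the proliferation antigen Mki67 at 7.66 and 5.07. Each of the 12 was higher in replicate 1, as were 46.0% of all detected named genes, and their median log2 ratio was 0.56.

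Most listed genes of microglia, blood and vascular cells were below the threshold. Only 2 of 16 microglia genes exceeded 1 cRPKM, against 57.2% of all genes. Among them was Cd68, a lysosomal gene that other cells use, at 1.66 and 2.76. Aif1 stood at 0.81 and 0.71 and Csf1r at 0.22 and 0.29, and the defining marker Cx3cr1, named after its values were seen, had 3 and 7 counts. Of 13 endothelial genes only Egfl7 exceeded 1 cRPKM, at 6.69 and 9.12, followed by Kdr at 0.99 and 0.93, Esam at 0.40 and 0.33 and Pecam1 at 0.25 and 0.26. Of 10 pericyte and smooth muscle genes, 3 had a mean of at least 1 cRPKM. These were Notch3, also a progenitor receptor, at 5.85 and 4.11, Rgs5 at 1.59 and 2.69 and Pdgfrb at 1.9 and 2.25, followed by Tagln at 0.62 and 0.58. Of 7 erythroid genes with a value, 2 reached 1 cRPKM. They were the globin genes Hba-a2 and Hba-a1 at 3.08 and 2.35 and at 2.1 and 1.77, above Alas2 at 0.07 and 0.08.

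Some transcripts of choroid plexus and fibroblasts separated the libraries, above all Ttr. The choroid plexus and ependyma list summed to 6.55 in replicate 1 and 146 in replicate 2, most of the latter being Ttr. The fibroblast list had similar sums, 51.1 and 46.3, because Dcn, its highest member, ran opposite to most others. The median log2 ratio of replicate 1 over replicate 2 over its 6 detected members was -2.09. Of these, 4 were higher in replicate 2 in all 3 pairs of equally numbered libraries, against 35.6% of all detected named genes. Ttr, the thyroxine carrier that choroid plexus secretes in bulk, stood at 0.08 and 136, on 13 and 21236 counts. The choroid genes Clic6 (0.03 and 1.08), Otx2 (0.11 and 0.68) and Kcne2 (0.11 and 0.40), named after their values were seen, were also higher in replicate 2, whereas Folr1 (1.64 and 2.68), Foxj1 (1.88 and 2.09) and Enkur (1.67 and 1.6) were less than 2-fold apart. Of the fibroblast list, Dcn stood at 40.9 and 23.4, Fn1 at 6.73 and 9.78, Igf2 at 0.21 and 3.26 (62.8% of exon bases shared with another gene) and Thbs1 at 1.67 and 1.48. The collagens Col1a2, Col1a1 and Col3a1, also named after their values were seen, stood at 0.04 and 2.05, at 0.14 and 1.87 and at 0.04 and 1.64. Ttr and the collagens were thus below 0.2 cRPKM in replicate 1 and above 1 in replicate 2.

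**Figure D5:**
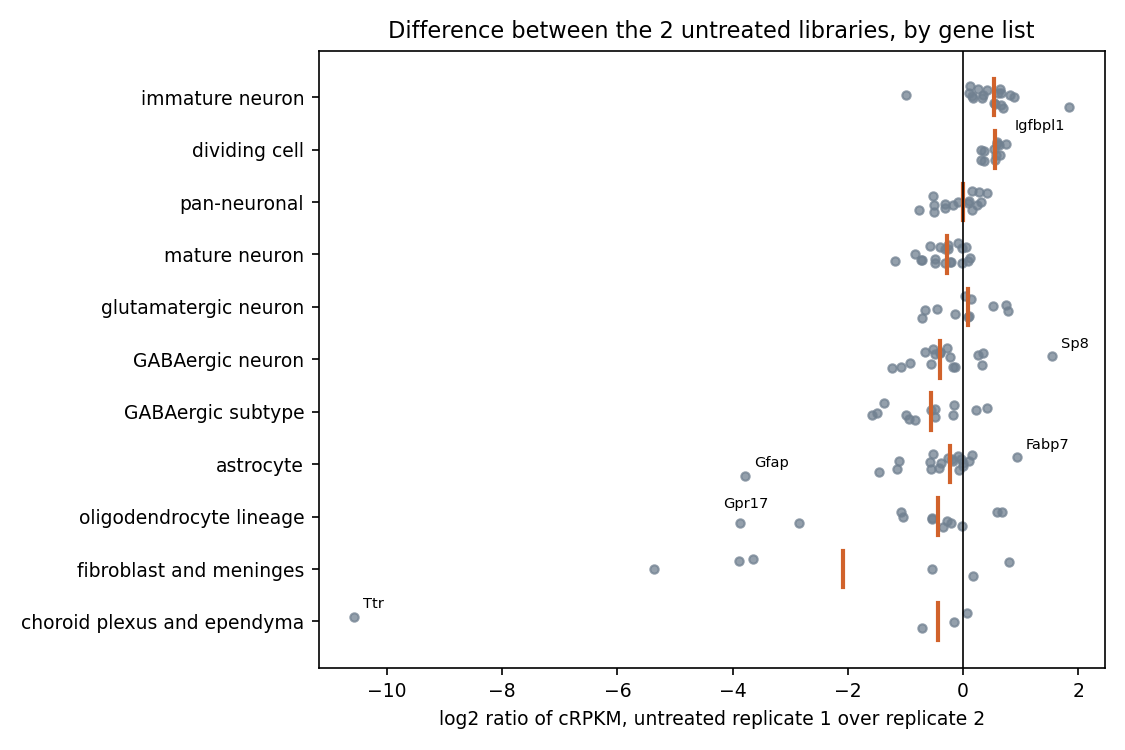
Log2 ratio of cRPKM in untreated replicate 1 over replicate 2 for the members of 11 lists with a mean of at least 1 cRPKM (points, spread vertically for legibility) and the median of each list (bars). Immature neuron and dividing cell genes lie mostly right of 0, mature neuron, GABAergic and astrocyte genes mostly left, and Ttr and Gfap lie far left.

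Several of these differences recurred between the equally numbered KCl libraries, although the labels do not say what the number stands for. Gfap stood at 22.4 and 307 untreated, at 22.8 and 335 after 0.5 h and at 24.6 and 475 after 3 h. For Ttr these values were 0.08 and 136, then 0.04 and 189, then 0.13 and 229. Of 19 detected immature neuron genes, 18 were higher in replicate 1 in all 3 pairs, against 20.7% of all detected named genes, and their median log2 ratio was 0.54 in the untreated pair, against -0.02 over all. The exception was Neurog2 at 0.95 and 1.89. All 12 dividing cell genes were likewise higher in replicate 1 in all 3 pairs. Of 20 astrocyte genes 16 were higher in replicate 2 in all 3 pairs, against 35.6% of all. Of the 20 mature neuron genes, 17 were higher in replicate 2 in the untreated pair, where 46.0% of all detected named genes were higher in replicate 1. Only 6 of the 20 were higher in replicate 2 in all 3 pairs, which is not above the 35.6% of all. The contributions of dissection, plating density, culture time and library to these differences were not tested.

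Among genes whose mean reached 10 cRPKM, the 5 with the highest ratio of replicate 1 over replicate 2 were Mthfs (44.6 and 7.51), Rps27rt (17.6 and 3.75), Nxph3 (19.1 and 8.19), Tnc and Sla (33.1 and 15.2). Mthfs and Rps27rt rest on 3 and 2 positions and on 19 and 5 counts in replicate 1, so their ratios carry little information. Nxph3, a ligand of neurexins, Tnc, a matrix protein of progenitors, and Sla, a signalling adaptor, rest on more than 2000 counts in each library and were higher in replicate 1 in all 3 pairs. The 5 with the lowest ratio were Ttr, Gfap, Cck, the pseudogene Rps18-ps3 (7.05 and 20.6, on 4 positions) and Scrg1 (11.1 and 31.7). Cck and Scrg1, a gene of glia, were higher in replicate 2 in all 3 pairs.

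Over all 83 families, the first member was the same in both untreated libraries in 71 and clearly above the next in 64. It held over 50% of the family sum in both libraries in 43. Of the 385 steps between neighbours in the family orders, 272 were clear. Counts per kilobase of the longest annotated transcript gave another first member in 17 families, those named above together with the granins and complexins, where Scg3 (103) and Cplx1 (162) came first.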

How the data were processed

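RNA-seq of 2 untreated libraries was described, and the other 4 libraries were used only to see whether differences between replicates 1 and 2 recurred. The submitters' processing notes name the mouse build mm9 and Bowtie; no version, annotation or rule for reads with several matches is given there. The deposited files hold, per gene, an RPKM that the authors call cRPKM and a raw read count that the authors left without normalization; neither column is explained in the files. The cRPKM was found to equal the count divided by a whole number of positions and by the library total. Symbols came from GENCODE vM21, which is on a later build, and named 20451 of 21553 genes (94.9%); no coordinates are given. Shared and opposite exon bases (over 25% is mentioned) and longest transcript lengths came from the same annotation.

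From these values the mean and SD of 2 libraries, ranks, family shares and log2 ratios (pseudocount 0.01 cRPKM) were computed with Python 3.11.15, pandas 2.3.3 and numpy 2.4.6. The ranking and list code was tested on simulated data. A gene was detected at a mean of 1 cRPKM. No test between groups was run, because there is 1 group.

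Of 776 listed genes, 762 had a value. Named were the 20 most abundant genes with a symbol, the 4 highest members of each of 112 lists, members of at least 1 cRPKM and the lowest member of families of 10 or fewer, the genes of the maturity pairs, and the 5 genes at each end of the replicate ratio with a mean of at least 10 cRPKM. Other genes were named after their values were seen. Some genes that these rules name, and the 3 maturity pairs that hold one, are not reported here. The members and lists were chosen with earlier results of these data known. Lists cover cell types, receptors, channels, transporters, synaptic proteins, cytoskeleton, splicing factors, peptides, immediate early genes and cholesterol synthesis.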

Additional observations from a re-analysis of the deposited data

How the results depend on the processing

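No paired analysis was possible because the 2 untreated libraries form 1 group and no test was run. The share of summed cRPKM in the 100 highest genes, a mean of 29.2% ± 1.9 (SD, n = 2), fell to 20.2% without mitochondrial genes, to 16.1% when the 100 genes were those with the most reads and the share was of reads and to 25.7% among genes with at least 200 effective positions, an alternative chosen after seeing the data; without replicate 1 it was 27.8% and without replicate 2 30.6%, with the genes ranked anew in the remaining library. The number of maturity pairs led by the later gene in both libraries was 3. It was 6 without replicate 1 and 3 without replicate 2, where the later gene had to lead only in the remaining library, a looser rule. The summed astrocyte marker level, 5744 on average, was 13233 when each library was rescaled to the same sum, as in TPM, which changes the unit and not the order. The number of detected genes ran from 11363 to 13153 over the thresholds and means tried, and the ratio of GABA to glutamate markers from 0.617 to 0.899. Of 83 families, 66 to 80 kept their first member over annotated transcript lengths, the geometric mean and either library alone, fewest on annotated lengths. Annotated lengths moved the log2 ratio of 6 of 18 maturity pairs by more than the SD between libraries. Genes with few effective positions rest on few reads even above 10 cRPKM, as Mthfs does on 19 and 3 counts, and orders between genes rest on lengths that the files do not state, and 2 libraries give no estimate of the spread between cultures.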

Other observations

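Of 10 genes of the Y chromosome with a value, 7 had no count in any of the 6 libraries. Uty and Ddx3y had 1 count each and Gm20775 had 4, over all 6 together, and Xist has no value here. Whether the embryos' sex or the counted positions of these genes set these numbers was not tested.

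Beyond the lists, 3 entries without a symbol in the annotation used stood among the 60 most abundant genes. They ranked 7th, 15th and 27th, and rested on 43, 1 and 3 effective positions. Rtl8b and Rpl36, also among the 60, rested on 12 and 20 positions.

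Several neuronal genes outside the cell type lists also separated the replicates, named after their values were seen. Islr2, a membrane protein of growing axons, stood at 121 and 64.5 cRPKM in the untreated libraries, and Icam5, an adhesion molecule of forebrain dendrites, at 36.9 and 72.5. Islr2 was higher in replicate 1 and Icam5 in replicate 2 in all 3 pairs of equally numbered libraries.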
